A study of Mus musculus with 12 samples.

Results

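The genes described here are 35 members of the interferon system and of class I antigen presentation, measured in mouse 3T3 cells given Shld1. They were chosen by gene symbol: 4 interferon receptor chains, 8 transcription factors, 1 sensor of viral RNA, 16 induced effectors and regulators, and 6 genes that form class I molecules or help load peptides onto them. Their symbols were carried by 125 of the 38784 probes of the array. All 35 had a value on at least 1 array and 34 had enough values to be tested, out of 14523 genes tested among 16969 named ones. The exception was Ifit1, an RNA-binding protein that blocks translation of viral messages. Ifit1 had a value on 5 of the 12 arrays: -3.81 and -4.94 in control replicates 2 and 3, -6.33 and -4.38 in the 100 nM replicates 1 and 3, and -4.56 in the 1 µM replicate 1, as log2 ratio of the cells over a reference RNA. All 5 values lay far below 0, and no fold or test was made from them.

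3T3 cells are an established line of mouse fibroblasts. Shld1 is a synthetic ligand of the FKBP12 destabilizing domain, a tag that marks a protein for degradation unless the ligand is bound. The 4 groups were control cells and cells with Shld1 at 10 nM, 100 nM or 1 µM, with 3 arrays each. On every array the cells' RNA carried Cy5 and a commercial mouse reference RNA carried Cy3. The length of treatment, the vehicle, whether the cells carried a tagged protein or were 1 clone, and whether replicates were separate cultures were not stated in the labels. The p-values therefore measure the spread between these samples, which may be technical. The comparison with the control asks whether expression differs between cells given Shld1 and control cells. An effect of the ligand itself cannot be told apart there from an effect of a vehicle or of a tagged protein. The comparison with the reference sets each gene in these cells against a common RNA. Reference values over all 12 arrays include the 9 with Shld1, and those of the control cells alone are given separately.

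Interferons are cytokines released by infected or stimulated cells. Type I interferons bind the receptor chains Ifnar1 and Ifnar2, and interferon gamma binds Ifngr1 and Ifngr2. Both receptors act through STAT proteins: Stat2 and Irf9 are parts of the complex that type I interferon activates. That complex binds a promoter element made of repeated GAAA blocks, and its target genes encode proteins that block viruses, edit or bind viral RNA, or display peptides to T cells. Many of these targets are kept at a low level in resting fibroblasts and rise when interferon is added. No interferon was named as a treatment for any group.

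The promoters show what many of these genes share besides their names. A RefSeq table of the build GRCm38.p6 gave the 300 bases from 250 before to 50 after the start of 30 of the 35 genes. The letters GAAANNGAAA, or TTTCNNTTTC on the other strand, were found in 11 of these 30 genes (36.7%) and in 1079 of all 27025 genes of the table (3.99%), with overlapping matches counted as matches. The match was in 7 of 12 effectors, in 2 of 8 transcription factors (Stat2 and Irf2), in the sensor Ifih1, in 1 of 5 antigen presentation genes (B2m) and in 0 of 4 receptors. Mx1, Mx2, Oas2, Usp18 and Tap2 had no entry in the table. The stretches below come from 6 members described in the results, 1 above the reference (Rsad2) and 5 below, and their capitals mark the matched letters. They lie at chr12:26456538-26456597 (minus strand) for Rsad2, chr4:156200850-156200909 (minus) for Isg15, chr8:71537562-71537621 (minus) for Bst2, chr3:142559980-142560039 (plus) for Gbp3, chr2:122147523-122147582 (plus) for B2m and chr19:34640779-34640838 (plus) for Ifit1, all upstream of the gene's start.
Rsad2: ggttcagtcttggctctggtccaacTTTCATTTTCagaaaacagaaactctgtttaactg
Isg15: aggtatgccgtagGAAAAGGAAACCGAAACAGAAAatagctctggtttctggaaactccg
Bst2: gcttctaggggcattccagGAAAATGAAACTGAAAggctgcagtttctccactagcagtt
Gbp3: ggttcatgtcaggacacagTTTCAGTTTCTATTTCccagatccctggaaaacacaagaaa
B2m: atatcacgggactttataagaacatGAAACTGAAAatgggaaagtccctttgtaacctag
Ifit1: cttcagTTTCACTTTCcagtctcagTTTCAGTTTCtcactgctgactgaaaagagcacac
Isg15 had 3 matches in its window, Bst2, Gbp3 and Ifit1 had 2 each, and Rsad2 and B2m had 1. A match is a description of letters and does not show that a factor binds there.

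Values are the deposited log2 ratio of cells over reference, set so that each array's median over its probes is 0, and a gene's value is the mean of its probes. Base 2 was assumed, and the direction was taken from the dyes and from marker genes. Of 10 fibroblast markers, 9 were higher than the reference, with a median of 1.52 (Lum 3.37, Postn 2.83, Lox 2.07), while Col3a1 had -0.11. Of 9 leukocyte and macrophage markers measured, 7 were lower, with a median of -1.33 (Fcer1g -2.65, Ptprc -2.42). The cells carried the same dye throughout, so for each probe a bias of the dye and a cell-to-reference difference cannot be told apart. Between 13.3% and 21.0% of the probes of an array were blank, and the correlation between arrays over genes ranged from 0.701 to 0.884. A ratio to the reference orders samples for 1 gene, but it does not give abundance between genes.

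Against the reference, the list lay lower in 3T3 cells. By limma over all 12 arrays, with Benjamini-Hochberg adjustment over all 14523 genes at 0.05, 26 of the 34 members differed from the reference, beside 73% of all genes. Of the members, 18 were lower (52.9%, beside 34.4% of all genes) and 8 were higher (23.5%, beside 38.6%). The median member had a log2 ratio of -0.31, and the median of all genes was 0.03. All 5 antigen presentation genes that were called were lower, and effectors divided into 4 higher and 7 lower of 15. The receptors gave 2 higher and 1 lower of 4, and the transcription factors 2 higher and 5 lower of 8. In bulk RNA, fewer cells that express a gene and less RNA per cell cannot be told apart. How much each member differs from the reference depends on what the reference RNA holds. Leaving out any 1 array gave between 23 and 26 called members. Without setting array medians to 0, 8 members were higher and 22 lower, and the share of called genes that were higher went from 52.9% to 39.3%.

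**Figure D1:**
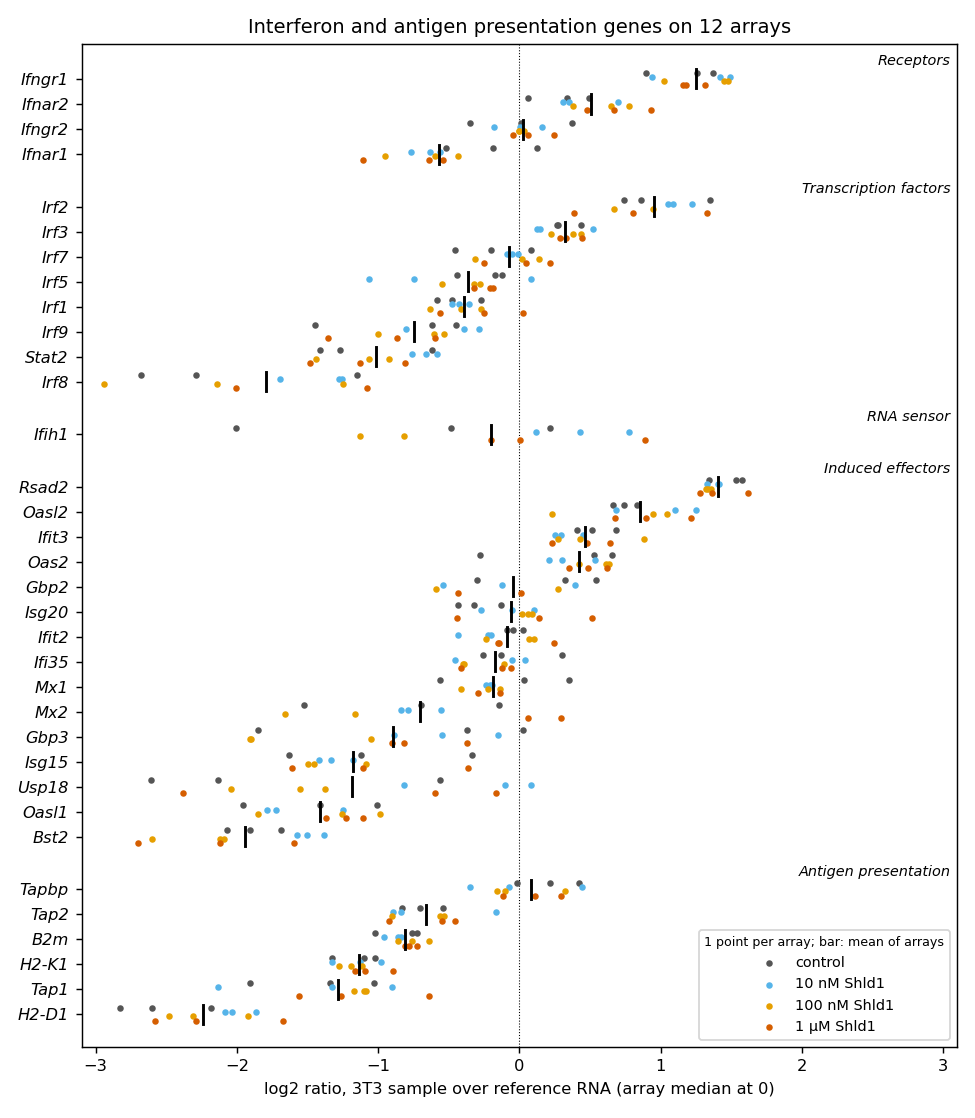
Each point is the log2 ratio of 3T3 cells over reference RNA on 1 array (x axis) for 1 of the 34 tested genes (rows, sorted within each role), coloured by Shld1 group, and the black bar is the mean of its arrays. Rsad2 sits between 1.28 and 1.62 and H2-D1 between -2.83 and -1.67, and within these ranges no group lies far from the others.

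Antigen presentation had the lowest ratios as a role. H2-D1, a class I heavy chain, ranged from -2.83 to -1.67 over the 12 arrays with a median of -2.24, and its mean was -2.24 (SE 0.087, adjusted p = 2.14e-09 by limma), 4.72-fold lower than the reference. Its values on the control arrays were -2.83, -2.60 and -2.18, on the 10 nM arrays -2.03, -1.86 and -2.09, on the 100 nM arrays -2.48, -1.92 and -2.31, and on the 1 µM arrays -2.58, -2.29 and -1.67. All 12 values were below 0, the 10 nM arrays lay above the controls, and the other groups overlapped them. H2-K1, the other class I heavy chain of the list, was 2.20-fold lower (-1.14, SE 0.052, adjusted p = 6.27e-09 by limma), with a range of -1.33 to -0.90. Class I heavy chain genes are near-identical copies, and members of the Ifit, Oas and Gbp families resemble each other, so a probe may also read relatives. B2m, the light chain of every class I molecule, was 1.76-fold lower (-0.81, SE 0.047, adjusted p = 3.49e-08 by limma), and its 12 array means ran from -1.03 to -0.64.

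Tap1 and Tap2 form the pump that brings peptides into the endoplasmic reticulum. Tap1 was 2.44-fold lower (-1.29, SE 0.115) and Tap2 had -0.66 (SE 0.076), with adjusted p-values of 1.07e-06 and 8.89e-06 by limma. Tapbp, which holds the pump to the class I molecule, had a ratio of 0.08 (SE 0.079, adjusted p = 0.359 by limma). It was the only member of this role not called lower than the reference.

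Among the induced effectors, Rsad2 had the highest ratio of all 34 members. Rsad2 encodes viperin, a radical SAM enzyme that makes a chain-terminating nucleotide against viral polymerases. Its control values were 1.53, 1.57 and 1.34, its 10 nM values 1.33, 1.41 and 1.40, its 100 nM values 1.32, 1.36 and 1.33, and its 1 µM values 1.62, 1.37 and 1.28. The 4 groups overlapped, and the mean was 1.41 (SE 0.048, adjusted p = 8.04e-10 by limma), 2.65-fold above the reference. Oasl2, a relative of the 2'-5' oligoadenylate synthetases, had 0.83, 0.74 and 0.66 in control cells, 1.10, 0.68 and 1.25 at 10 nM, 1.04, 0.94 and 0.23 at 100 nM, and 0.68, 0.89 and 1.22 at 1 µM. Its mean was 0.86 (SE 0.083, adjusted p = 1.98e-06). Ifit3 (0.46) and Oas2 (0.42), which senses double-stranded RNA, were the other 2 higher effectors, but their probes did not agree, as described below.

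Bst2, or tetherin, which holds budding virus on the cell surface, lay at the opposite end. Its control values were -2.07, -1.91 and -1.69, its 10 nM values -1.38, -1.58 and -1.50, its 100 nM values -2.60, -2.12 and -2.09, and its 1 µM values -2.70, -2.12 and -1.60. All were negative, with a mean of -1.95 (SE 0.088, adjusted p = 5.58e-09 by limma), 3.85-fold lower than the reference. Oasl1, which limits translation of Irf7, had -1.96, -1.42 and -1.01 in control cells, -1.73, -1.78 and -1.25 at 10 nM, -1.85, -0.99 and -1.25 at 100 nM, and -1.37, -1.11 and -1.23 at 1 µM. It was 2.66-fold lower on average (-1.41, SE 0.096).

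Isg15, the ubiquitin-like protein attached to other proteins in the interferon response, was 2.26-fold lower (-1.18, SE 0.12, adjusted p = 3.08e-06 by limma). Usp18, the protease that removes Isg15 and restrains the type I receptor, had -1.19 (SE 0.207), and the guanylate-binding GTPase Gbp3 had -0.90 (SE 0.149). The dynamin-like GTPase Mx2 had -0.69 (SE 0.123), and Ifi35 had -0.17 with an adjusted p of 0.0408 by limma, which passed by little and was lost in 8 of the alternative settings. Mx1, the sister GTPase of Mx2, missed the threshold at -0.19 (adjusted p = 0.0521 by limma). It was called lower in 4 of the 18 alternative settings that gave it a value. Isg20 (-0.06), an exonuclease, Gbp2 (-0.07) and Ifit2 (-0.09) did not pass. The sensor Ifih1, or MDA5, had -0.26 (adjusted p = 0.209).

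The interferon gamma chain Ifngr1 had the highest ratio of the receptors. Its values were 1.37, 1.25 and 0.90 in control cells, 1.42, 1.49 and 0.94 at 10 nM, 1.45, 1.47 and 1.02 at 100 nM, and 1.32, 1.18 and 1.15 at 1 µM. In 3 of the 4 groups replicate 3 was clearly the lowest, and at 1 µM it was the lowest by little. The mean was 1.25 (SE 0.069, adjusted p = 2.25e-08 by limma). Ifnar2, the chain that binds type I interferon most tightly, was higher at 0.51 (adjusted p = 2.18e-05), Ifnar1 lower at -0.57 (adjusted p = 2.59e-05), and Ifngr2 stood at 0.02.

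Of the transcription factors, Irf2, known as an antagonist of Irf1, was the highest. It had 1.35, 0.86 and 0.74 in control cells, 1.22, 1.05 and 1.08 at 10 nM, 0.67 and 0.94 on the 100 nM replicates 2 and 3, and 1.33, 0.80 and 0.39 at 1 µM. The 100 nM replicate 1 had no value, and the mean was 0.94 (SE 0.091, adjusted p = 3.74e-06 by limma). Irf3, the factor phosphorylated after viral sensing, was also higher, at 0.32, but its probes did not agree, as described below. Irf8, a factor of macrophages and other myeloid cells, was the lowest. Its values were -2.29, -1.15 and -2.68 in control cells, -1.28, -1.26 and -1.69 at 10 nM, -1.25, -2.14 and -2.94 at 100 nM, and -1.08 and -2.01 on the 1 µM replicates 1 and 2, with a mean of -1.78 (SE 0.175, adjusted p = 4.35e-06). Stat2 (-1.01), Irf9 (-0.75), Irf1 (-0.39) and Irf5 (-0.36) were lower as well. Irf7, which amplifies the type I response, had -0.07 (adjusted p = 0.327).

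The control cells alone gave 20 called members, 6 higher and 14 lower, beside 46.1% of all genes called in that comparison (26.5% higher, 19.6% lower). The 10 nM cells gave 19 (5 higher, 14 lower), beside 44.7% of genes (25.6% and 19.1%). The 100 nM cells gave 24 (8 and 16), beside 50.3% (28.7% and 21.7%), and the 1 µM cells 20 (8 and 12), beside 45.9% (25.8% and 20.1%). Called higher in each of the 4 groups were Ifngr1, Irf2, Oasl2 and Rsad2, as were 19.6% of all genes. Called lower in each of the 4 groups were Stat2, Irf8, Isg15, Oasl1, Bst2, B2m, H2-K1, H2-D1, Tap1 and Tap2, as were 12% of all genes. These 4 comparisons share the reference RNA, so they are not separate pieces of evidence. The promoter letters were present in 3 of 7 higher members with an entry, 5 of 15 lower ones and 2 of 7 that were not called.

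Several members were read by more than 1 probe, and these probes give a second look at the levels. B2m had 77 probes, whose mean ratios ran from -1.45 to 0.41 with a median of -0.91, and 72 of them were below 0. On each array, between 59 and 63 of the 64 B2m probes used were below 0. Ifit3 was read by 3 probes. The one used for the gene value had a value on all 12 arrays and a mean of 0.46, while the others had -1.11 on 10 arrays and -1.72 on 11. The mean over all 3 was -0.64 (adjusted p = 0.0016 by limma), so the direction of Ifit3 depended on the probe. Oas2 had probes at -0.25 and 1.09, Irf9 at -1.48 and -0.01, and Ifngr2 at -0.55 and 0.60. Irf3 had probes at 0.97, 0.19 and -0.19, and the last was called lower (adjusted p = 0.0138 by limma on single probes). Probes of H2-K1 (-1.44, -1.34 and -0.63), Oasl1 (-2.08 and -0.74) and Irf1 (-0.61, -0.38 and -0.19) agreed in sign. So did those of Ifnar2, but the unused probe, with values on 11 arrays, had 0.15 beside 0.51 and was not called (adjusted p = 0.252 by limma on single probes).

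**Figure D2:**
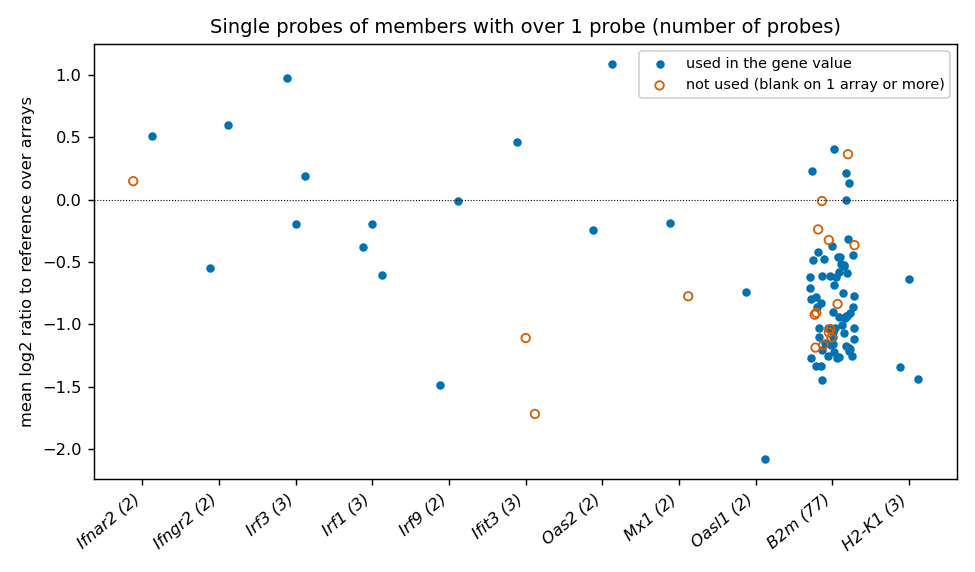
Each point is 1 probe's mean log2 ratio to the reference over its arrays (y axis) for members with over 1 probe (x axis, number of probes in brackets), filled blue where the probe entered the gene value and open orange where it was blank on some array. B2m's 77 probes spread from -1.45 to 0.41, and the 3 probes of Ifit3 lie on both sides of 0.

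No member passed the test at any dose of Shld1. By limma with Benjamini-Hochberg adjustment, 0 of 34 members and 0 of 14523 genes (0%) were called at 10 nM, at 100 nM, at 1 µM, for the mean of the 3 doses and for any difference among doses. At an unadjusted p under 0.05, 3 members passed at 10 nM, beside 360 genes (2.48%), 1 at 100 nM beside 438 genes (3.02%), and 2 at 1 µM beside 618 genes (4.26%). The mean of the doses gave 1 member, Ifnar1, beside 436 genes (3%), and any difference among doses gave 3, Mx2, Ifih1 and Bst2, beside 422 genes (2.91%). The members' median log2 change was 0.04 at 10 nM, -0.01 at 100 nM and 0.05 at 1 µM, beside -0.01, 0.02 and -0.02 for all genes. Above 0 were 19, 15 and 23 of the 34 members. The 3 dose comparisons share the same 3 control arrays.

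The intervals say how large a change these arrays leave room for. At 1 µM, the 95% interval of the change lay within a doubling in either direction for 28 of 34 members (82.4%, beside 83% of all genes). At 100 nM this held for 26 members (76.5%, beside 84.8%) and at 10 nM for 27 (79.4%, beside 84.8%). For the mean of the 3 doses it held for 31 members (91.2%, beside 91%). At 1 µM, 5 of 6 antigen presentation genes were above 0 with a median of 0.08, and 9 of 15 effectors with a median of 0.02.

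**Figure D3:**
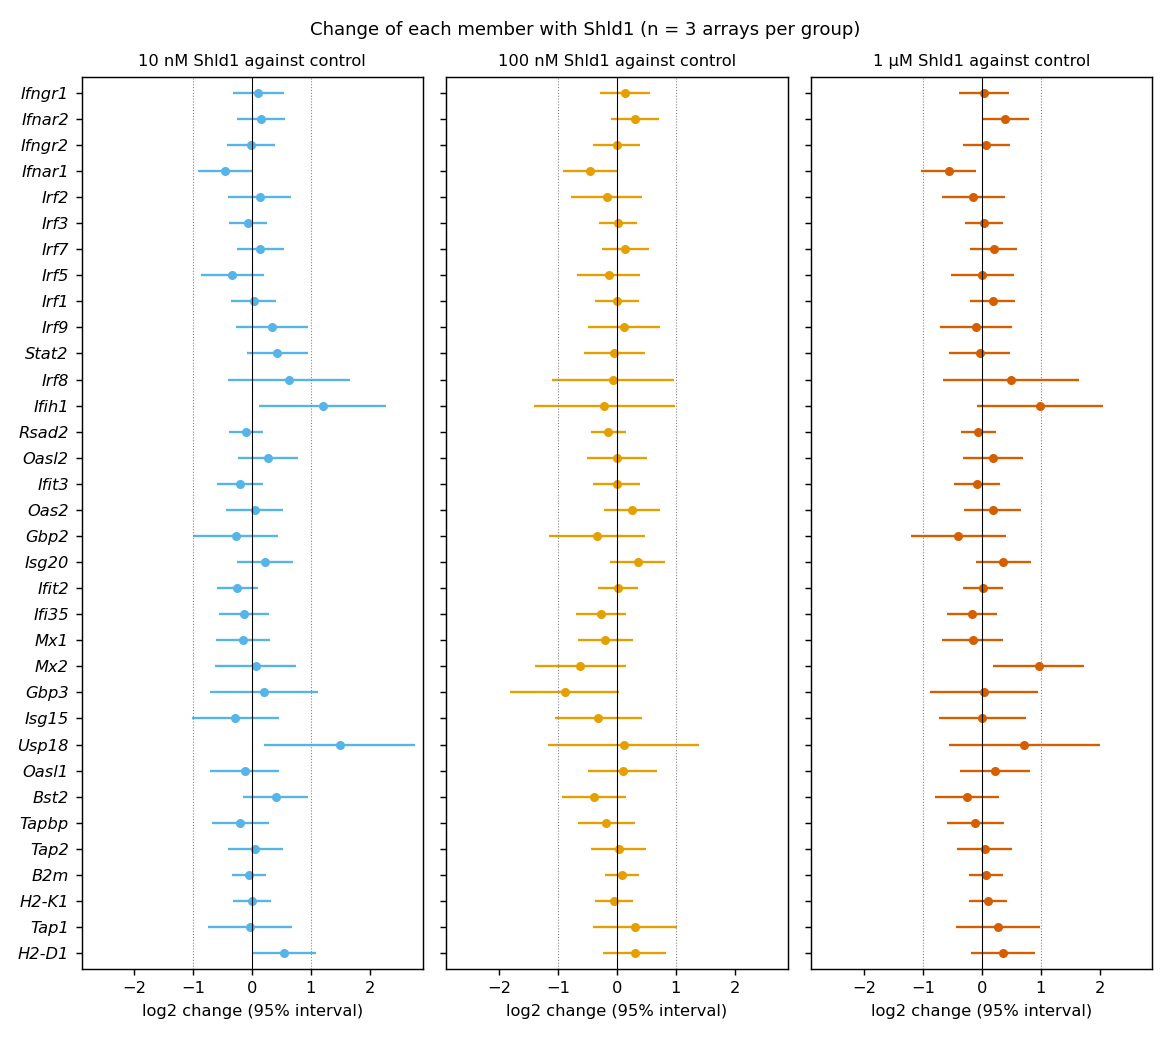
Points are the log2 change of each of the 34 members against control (x axis) at 10 nM, 100 nM and 1 µM Shld1, lines are 95% intervals, and dotted lines mark a doubling and its inverse. Point estimates ran from -0.57 to 0.99 at 1 µM, and no adjusted p passed 0.05 in any panel.

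Ifnar1, the type I receptor chain that is taken up and degraded after ligand binding, had the smallest unadjusted p for the mean of the doses. Its control values were -0.52, 0.12 and -0.19, its 10 nM values -0.64, -0.77 and -0.57, its 100 nM values -0.60, -0.95 and -0.43, and its 1 µM values -1.11, -0.64 and -0.54. All 10 nM and all 1 µM arrays lay below all controls, and the 100 nM arrays overlapped them through 1 array. The difference was -0.46 at 10 nM, -0.47 at 100 nM and -0.57 at 1 µM (SE 0.211 each), and -0.50 for the mean of the doses (SE 0.172, 95% interval -0.88 to -0.12, unadjusted p = 0.014 by limma). It failed the adjustment, with an adjusted p of 0.999 at 1 µM. Its partner Ifnar2 did not pass either. Ifnar2 had 0.06, 0.33 and 0.49 in control cells, 0.31, 0.35 and 0.69 at 10 nM, 0.38, 0.77 and 0.65 at 100 nM, and 0.48, 0.93 and 0.67 at 1 µM. The groups overlapped, and the difference at 1 µM was 0.40 (SE 0.185, unadjusted p = 0.0528 by limma). These Ifnar2 values come from 1 probe. A second probe, with values on 11 arrays and not used, gave differences of 0.74 at 10 nM, -0.135 at 100 nM and 0.042 at 1 µM.

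Mx2 had the smallest unadjusted p at 1 µM. Its values were -1.53, -0.69 and -0.15 in control cells, -0.79, -0.84 and -0.56 at 10 nM, -1.66 and -1.17 on 2 arrays at 100 nM, and 0.29 and 0.06 on 2 arrays at 1 µM. Both 1 µM values lay above every other array. The difference at 1 µM was 0.97 (SE 0.347, 95% interval 0.19 to 1.74, unadjusted p = 0.0199 by limma) and at 100 nM -0.62 (SE 0.347), so the doses did not line up in order. Without control replicate 1 the 1 µM difference was 0.60.

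Ifih1 and Usp18 had wide control groups. Ifih1 had -2.01, -0.48 and 0.22 in control cells, 0.78, 0.11 and 0.43 at 10 nM, -0.82 and -1.13 on 2 arrays at 100 nM, and 0.00, 0.89 and -0.20 at 1 µM. The control range covered most treated arrays, and the differences were 1.20 at 10 nM (SE 0.485, unadjusted p = 0.0319), -0.21 at 100 nM and 0.99 at 1 µM. Usp18 had -2.61, -2.14 and -0.56 in control cells, -0.10, -0.81 and 0.08 at 10 nM, -2.04, -1.55 and -1.38 at 100 nM, and -2.38, -0.17 and -0.60 at 1 µM. Its 10 nM difference was 1.49 (SE 0.585, 95% interval 0.21 to 2.77, unadjusted p = 0.0261), the largest point estimate in the list at any dose. The 10 nM arrays overlapped the controls through 1 array. Without control replicate 1, these 10 nM differences were 0.57 for Ifih1 and 1.07 for Usp18, and the 1 µM difference of Ifih1 was 0.36. Without control replicate 3, the 1 µM difference of Ifih1 was 1.48.

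H2-D1 was 0.54 above control at 10 nM (SE 0.246, unadjusted p = 0.0482), with its 3 arrays above all controls, and 0.30 and 0.36 above at 100 nM and 1 µM, with overlap. The 100 nM value was 0.14 without the 100 nM replicate 2 and 0.48 without control replicate 3, and the 1 µM value was 0.10 without the 1 µM replicate 3 and 0.56 without the 1 µM replicate 1. Bst2 gave 0.40 at 10 nM (SE 0.25), -0.39 at 100 nM and -0.25 at 1 µM. Its 10 nM arrays lay above all controls and its 100 nM arrays below them. Isg20 had -0.32, -0.44 and -0.13 in control cells and 0.02, 0.09 and 0.06 at 100 nM, with no overlap. At 10 nM it had 0.10, -0.06 and -0.27, and at 1 µM -0.44, 0.14 and 0.52, both overlapping the controls. Gbp3 had -1.85, 0.02 and -0.37 in control cells, -0.89, -0.55 and -0.15 at 10 nM, -1.90, -1.05 and -1.91 at 100 nM, and -0.90, -0.37 and -0.82 at 1 µM. Its difference at 100 nM was -0.89 (SE 0.423, unadjusted p = 0.0583). Leaving out control replicate 1 made it -1.45, and leaving out control replicate 2 made it -0.51.

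**Figure D4:**
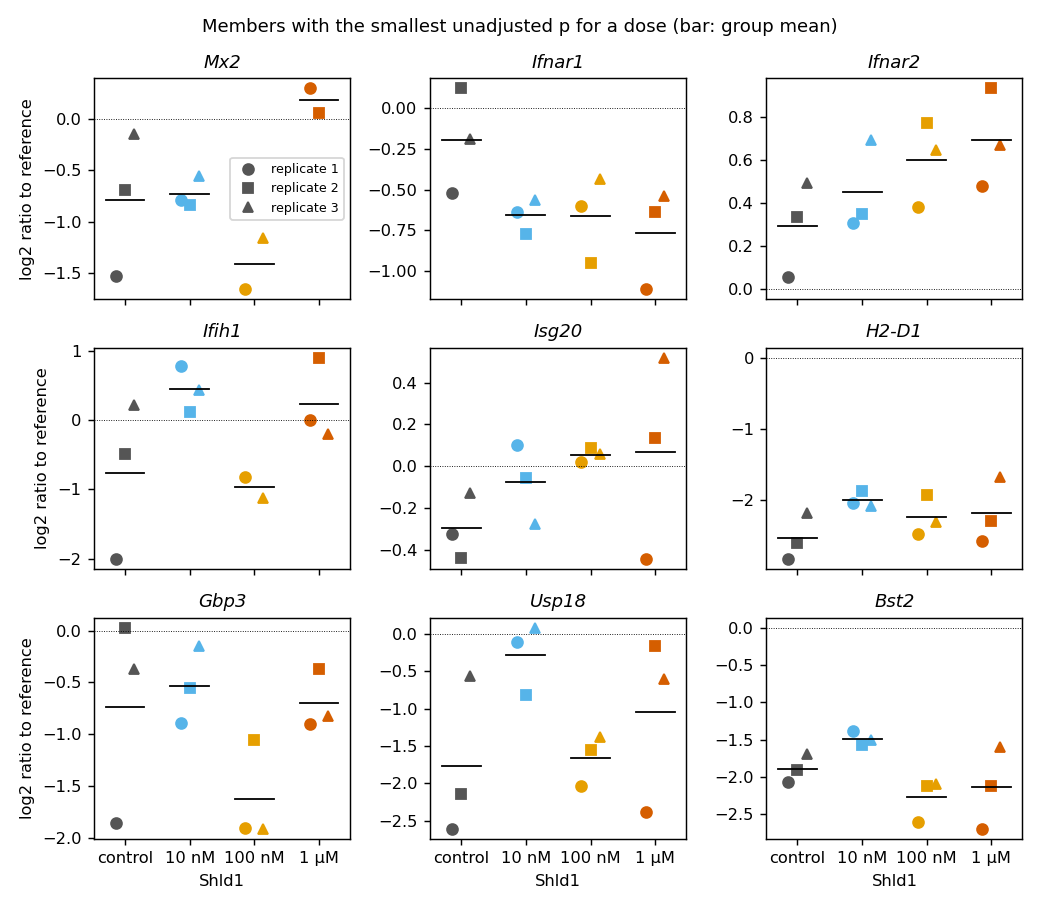
Each panel shows 1 gene with a small unadjusted p for a dose: the log2 ratio to the reference (y axis) on each array by Shld1 group (x axis), with marker shape for the replicate number and a bar for the group mean. Control values of Usp18 run from -2.61 to -0.56, and both 1 µM values of Mx2 lie above its other arrays.

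Members whose arrays at a dose did not overlap the controls are given beside the share of all genes. At 10 nM, Bst2 and H2-D1 lay above all controls (3.48% of all genes did) and Ifnar1 and Ifit2 below (3.66%). At 100 nM, Isg20 lay above (4.24%) and Bst2 below (3.99%). At 1 µM, Mx2 lay above (3.68%) and Ifnar1 below (4.81%). Mx2 had a value on only 2 arrays at 1 µM, and groups with fewer values separate more easily. Ifit2, named here because its count was seen, had -0.09, -0.04 and 0.02 in control cells and -0.22, -0.20 and -0.43 at 10 nM.

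The control arrays differed among themselves on this list. Control replicate 1 had the lowest of the 3 control values for 19 of 34 members, 10 of them among the 15 effectors, beside 34.4% of all genes, and control replicate 3 had the highest for 20 members, beside 31.8%. Marker lists also shifted over the control arrays. The mean of 9 leukocyte and macrophage markers was -2.09, -1.20 and -0.84 in control replicates 1 to 3. It lay between -1.31 and -0.95 at 10 nM, between -1.57 and -1.13 at 100 nM and between -1.17 and -0.77 at 1 µM. In control replicates 1 to 3, the mean of 3 epithelium markers was -1.28, -0.93 and -0.38, and that of 10 fibroblast markers 1.86, 1.64 and 1.53. The median absolute deviation of all deposited ratios narrowed over the same arrays, from 0.729 to 0.686 and 0.589. All 9 leukocyte and macrophage markers had point estimates above 0 at 1 µM against control, with a median of 0.29 and none called. Of the 10 fibroblast markers, 9 had estimates below 0 at 1 µM, with a median of -0.34, none called and 3 with an unadjusted p under 0.05 (Lum -1.26, Col3a1 -0.45 and Dcn -0.38). The part of these lists, or of the array spread, in the members' values was not tested. Spread was widest for Usp18, with a residual SD of 0.846 beside a median of 0.265 over all genes, followed by Ifih1 (0.709) and Irf8 (0.681). It was narrowest for B2m (0.107), Rsad2 (0.11) and Irf3 (0.14). The value of B2m is a mean of 64 probes and that of Irf3 of 3, and averaging probes narrows the spread. Rsad2, Usp18, Ifih1 and Irf8 were each read by 1 probe.

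The replicate number of the labels was tested as a factor across groups. No member was called by limma's F test, beside 2 genes of 14519 (0.0138%), and 7 members had an unadjusted p under 0.05, beside 10.9% of genes. The smallest were Tap1 (unadjusted p = 0.0212), Ifngr1 (0.0216) and Gbp3 (0.0237). Tap1 had -1.91, -1.34 and -1.03 in control cells, -2.13, -1.32 and -0.90 at 10 nM, -1.17, -1.10 and -1.09 at 100 nM, and -1.26, -1.56 and -0.64 at 1 µM, so replicate 3 was highest in each group.

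Other genes of the same pathways were read from a list of 76 symbols, 63 of which were tested. Against the reference, 18 were higher and 37 lower (87.3% called, beside 73% of all genes), with a median of -0.25. The highest were H2-M3 (2.69), a class I molecule that presents formylated peptides, H2-Aa (1.56), a class II chain, Ifitm2 (1.33), which blocks virus entry, and Gbp5 (1.31). Other class II genes of the list differed from H2-Aa: H2-Ab1 had -0.685, H2-Eb1 -0.22, H2-DMa -0.214 and H2-DMb1 0.867. The lowest were the GTPases Igtp (-1.75) and Tgtp1 (-1.41), with Oas1c (-1.63) and Ifi203 (-1.48).

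None of these 63 genes was called at any dose by limma, and 3, 2 and 5 had an unadjusted p under 0.05 at 10 nM, 100 nM and 1 µM, beside 2.48%, 3.02% and 4.26% of all genes. At 1 µM their median was 0.02, with 34 above 0. The smallest p belonged to Dhx58, a regulator of RNA sensing, which had -0.23, -0.31 and -0.29 in control cells and -0.93, -0.89 and -0.49 at 1 µM, a difference of -0.50 (SE 0.158, unadjusted p = 0.00852). Sting1, the adaptor that responds to cytosolic DNA, had -1.83, -3.07 and -0.81 in control cells and -0.44, 0.24 and -0.68 at 1 µM, a difference of 1.61 (SE 0.519). Cgas, the enzyme that makes the signal for Sting1, had a difference of -0.60 (SE 0.216), and Cmpk2, a mitochondrial nucleotide kinase, of -1.24 (SE 0.391). At 1 µM, 4 of the 63 lay above all controls (Mavs, Sting1, Parp12 and Erap1), beside 3.68% of all genes, and 5 lay below (Dhx58, Cgas, Cmpk2, Psmb10 and H2-DMa), beside 4.81%. Erap1 had a value on only 2 control arrays, and Cmpk2 on only 2 arrays at 1 µM. At 10 nM, 10 of the 63 lay above all controls, a larger share than the 3.48% of all genes. They were Jak2, Irgm2, Iigp1, Tgtp1, Gbp5, Mavs, Dtx3l, Rtp4, Erap1 and Calr. Of these, Tgtp1, Gbp5 and Erap1 had a blank array in a compared group, and groups with fewer values separate more easily. Below all controls at 10 nM were 2 (Irgm1 and Cgas), beside 3.66%. At 100 nM, 2 lay above (Irgm2 and H2-Aa) and 4 below (Jak1, Dhx58, Cd74 and, by less than the rounding of its values, Tyk2), beside 4.24% and 3.99%. The genes outside the naming rule were named after their values were seen.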

How the data were processed

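Two-colour oligo arrays measured 3T3 RNA (Cy5) against Stratagene mouse reference RNA (Cy3), per the labels, on an Axon scanner. The values are the deposited log2 ratios of the series value table. The base is assumed to be 2. How the authors normalized the ratios, treated background or filtered spots is not stated in the labels or the table. Scanner intensities were not analysed here, so signal over background is unknown, and with 3 arrays a group their number limits the precision.

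Array medians ran from -0.203 to -0.095 and were subtracted from each array. Of 38784 probes, 26173 carried 1 gene symbol in the platform annotation, 28 several and 12583 none. Each gene was given the average of those probes with no blank among the 12 arrays, and where it had none, the probe with the most values. Genes with a value on at least 2 of 3 arrays in every group were tested with limma 3.58.1 in R 4.3.3 (group means over all arrays, lmFit and eBayes, two-sided, Benjamini-Hochberg over 14523 genes, threshold 0.05). Blank arrays were dropped for that gene, which touched 6 of the tested members (Irf2, Irf8, Ifih1, Mx1, Mx2 and Gbp2). Arrays are compared by group, and no sample was left out. On simulated data of 14523 genes for 1 µM against control, changes of 2-fold were recovered in 52% of cases and of 4-fold in 89.6%. Each simulated set held 200 changed genes, of 1.5-fold to 8-fold, and noise drawn independently for each array. With fewer changed genes the adjusted threshold is stricter, and recovery there was not simulated. These shares are therefore not the power to call 1 changed member in these data.

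The members and lists were chosen with earlier results of these data known. Every member is named with its level. Values on every array are given for members with the smallest unadjusted p in a dose comparison (6 at 1 µM and 3 in each other comparison), the 3 with the smallest p over replicate numbers, and the 4 highest and 4 lowest against the reference. Of the other pathway genes, the 4 with the smallest p at 1 µM and the 4 highest and lowest are named. Alternatives changed the centring, array scaling, quantile normalization, filter on blanks, value per gene, samples in the fit, the replicate number as a block, and each array in turn. Promoter letters come from RefSeq. Figures were drawn with matplotlib 3.10.9.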

Additional observations from a re-analysis of the deposited data

How the results depend on the processing

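No member was called at any dose under any of the 22 alternative settings. Against the reference over all arrays, the number of called members ran from 23 to 30 of 34. Without centring, 30 members were called, 8 higher and 22 lower, and the share of called genes that were higher moved from 52.9% to 39.3% over all arrays, from 57.5% to 40.5% in control cells, from 57.2% to 41.2% at 10 nM, from 57% to 42.8% at 100 nM and from 56.2% to 38.4% at 1 µM. With every probe tested alone, the probes called against the reference were 13154 in control cells, 12811 at 10 nM, 14588 at 100 nM, 13132 at 1 µM and 21637 over all arrays, which is more because more features were tested, and 1 probe, of no member, was called at 1 µM and 1 for any dose. The count of genes called over the replicate number (2) became 1 with the looser filter, with quantile normalization, with single probes and without centring, 0 with genes measured on all arrays, 3 with the mean of all probes, and 0 to 2 with 1 array left out.

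Whether the replicate numbers pair the samples is not settled. Same-numbered arrays correlated between -0.107 and 0.278 (median 0.118) in their deviations from the group means, with 10 of 18 pairs over 0.1, beside a median of -0.0493 and 4 of 36 pairs for other numbers. As a hint from the data, 8 of 12 arrays correlated best with their own number, but the labels do not say what a number marks. With the replicate number as a fixed block, 0 genes were called at every dose, and 6855, 6647, 7456, 6887 and 10683 genes differed from the reference in control, 10 nM, 100 nM, 1 µM and all cells. With it as a random block these counts were 0 and 6719, 6501, 7318, 6688 and 10305.

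Signs turned for single genes. For Ifit3 the set of probes averaged changed, and for the other genes the cause was not tested. With 1 array left out, values ran from -0.519 to 0.03 for Bst2, -0.525 to 0.413 for Gbp3 at 1 µM, from -0.36 to 0.581 for Gbp3 and -0.31 to 0.381 for Mx2 at 10 nM, and from -0.837 to 0.27 for Ifih1 and -0.31 to 0.715 for Usp18 at 100 nM. For the average of the doses they ran from -0.169 to 0.021 for Bst2, -0.777 to 0.16 for Gbp3 and -0.23 to 0.456 for Mx2. Against the reference they ran from -0.64 to 0.493 for Ifit3 and -0.02 to 0.07 for Ifngr2. Against the reference, Ifit3 was -0.64 with all probes and -0.64 without the 1 µM replicate 2. A gene's value averages the probes with no blank among the arrays kept. Leaving out that array let the Ifit3 probe with 11 values (-1.72) enter beside the one at 0.46. Ifngr2 was -0.12 without centring and -0.02 without control replicate 2, Isg20 was 0.003 without the 1 µM replicate 1, and Tapbp was -0.068 without centring. Without control replicate 1, Gbp3 was -0.36 at 10 nM and -0.53 at 1 µM, Mx2 was -0.31 at 10 nM and -0.23 averaged over doses, and Usp18 was -0.31 at 100 nM. Usp18 at 100 nM was also -0.028 without the 100 nM replicate 3 and -0.071 without control replicate 2. Quantile normalization gave Gbp3 -0.055 at 1 µM and Mx2 -0.045 at 10 nM. Without the 1 µM replicate 1, Bst2 was 0.03 at 1 µM and 0.015 for the mean of the doses, where it was 0.021 without control replicate 3. Gbp3 was -0.13 at 1 µM without the 1 µM replicate 2 and 0.16 for the mean without control replicate 2, Mx2 was -0.027 at 10 nM without the 10 nM replicate 3, and Ifih1 was 0.27 at 100 nM without control replicate 3.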
